A study of Homo sapiens with 24 samples.

Results

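The control arm of the LNCaP experiment comprised 8 of the 24 one-colour arrays, those labelled scramble: 4 biological replicates 24 h and 4 biological replicates 48 h after transfection. These 8 arrays were chosen by their labels alone, and no array of cells given an siRNA against a target transcript was used. LNCaP is an androgen-sensitive line of luminal character derived from a lymph node metastasis of a human prostate carcinoma. The cells were grown in RPMI-1640 medium with fetal bovine serum, and a Stealth negative control duplex of medium GC content was introduced by microporation, an electric pulse that opens the membrane. All 8 samples therefore share the pulse and the control duplex, and untransfected cells were not analysed here. Total RNA was isolated with TRIzol, and Cy3-labelled cRNA was hybridised to an Agilent human expression array, in its version v2 for the 24 h samples and v3 for the 48 h samples. Since each version was used at 1 time point, the effects of time and of version cannot be told apart, and no difference between them was tested.

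Each probe was placed in a class within its own array version. Agilent Feature Extraction, the scanner software, marks a spot as well above background when its signal exceeds the local background by a set multiple of the background spread. A probe was called bright when all 4 arrays of its version marked it as well above background and its mean within-array percentile of processed intensity was 90 or more, and moderate when all 4 marked it and the percentile was lower. A probe well above background on 1 to 3 arrays was counted as partly detected, and one with no such array as not well above background. A gene took the highest class among its probes. Intensities are given as log2 values normalized within a version, in the order of replicates 1 to 4. Probes differ in how strongly they bind, so the brightness of different genes is no order of their RNA abundance.

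As background, prostate luminal cells take up androgen, a steroid hormone that switches on a programme of secreted and membrane proteins. Among the textbook targets of androgen are the kallikrein proteases KLK3, the prostate-specific antigen, and KLK2. The pioneer factor FOXA1 opens chromatin for this programme, while HOXB13 holds the luminal identity. LNCaP cells are widely used because they keep this programme, whereas basal, neuroendocrine and stromal genes mark other cells of the gland. In a bulk RNA sample, fewer cells of a type and less RNA per cell cannot be told apart.

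The share of probes well above background was between 56.7% and 66.9% on the 24 h arrays and between 59.8% and 65.4% on the 48 h arrays. The 24 h replicate 3 stood apart from its group. It had the lowest share, 56.7%, the lowest median processed intensity, 21.4 against 27.6 to 47.7 on the other 24 h arrays, and 287 probes that lay more than 2 log2 units below every other array of the group, against 2 to 74. On the 24 h replicate 1, 39 of its 74 such low probes (52.7%) lay in 1 of 64 blocks of the array surface. The value on each array is given below for many of the genes named, and other genes are given by their mean and SD or their class over all 4 arrays, these 2 arrays included. With 4 arrays a version, precision is limited by that number and by how far a signal stands above background. Other arrays departed upward. Probes more than 2 log2 units above every other array numbered 222 on the 24 h replicate 2, against 51 to 103 on the rest of its group. At 48 h they numbered 339 on replicate 1 and 224 on replicate 4, against 61 and 63 on replicates 2 and 3.

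Of 20992 genes named on the 24 h array, 3169 (15.1%) were bright, 11136 (53.0%) moderate, 2874 (13.7%) partly detected and 3813 (18.2%) on no array well above background. Of 22438 genes on the 48 h array, 3356 (15.0%) were bright, 12439 (55.4%) moderate, 2342 (10.4%) partly detected and 4301 (19.2%) not well above background. Protein-coding genes were well above background on all 4 arrays in 70.0% of 18331 cases at 24 h and 73.7% of 18215 at 48 h. For long noncoding RNAs the share was 46.3% of 1681 genes and 52.1% of 3246. Small nucleolar RNA genes, whose products guide the modification of ribosomal RNA, had a higher share than protein-coding genes on both versions, 80.1% of 296 at 24 h and 80% of 285 at 48 h. The highest-class rule matters for genes with several probes: of 6007 such genes at 24 h only 2996 (49.9%) had every probe in 1 class, and at 48 h 3252 of 6754 (48.1%). Under the lowest class among the probes, a rule added after the data were seen, the bright genes numbered 2091 at 24 h and 2137 at 48 h.

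**Figure D1:**
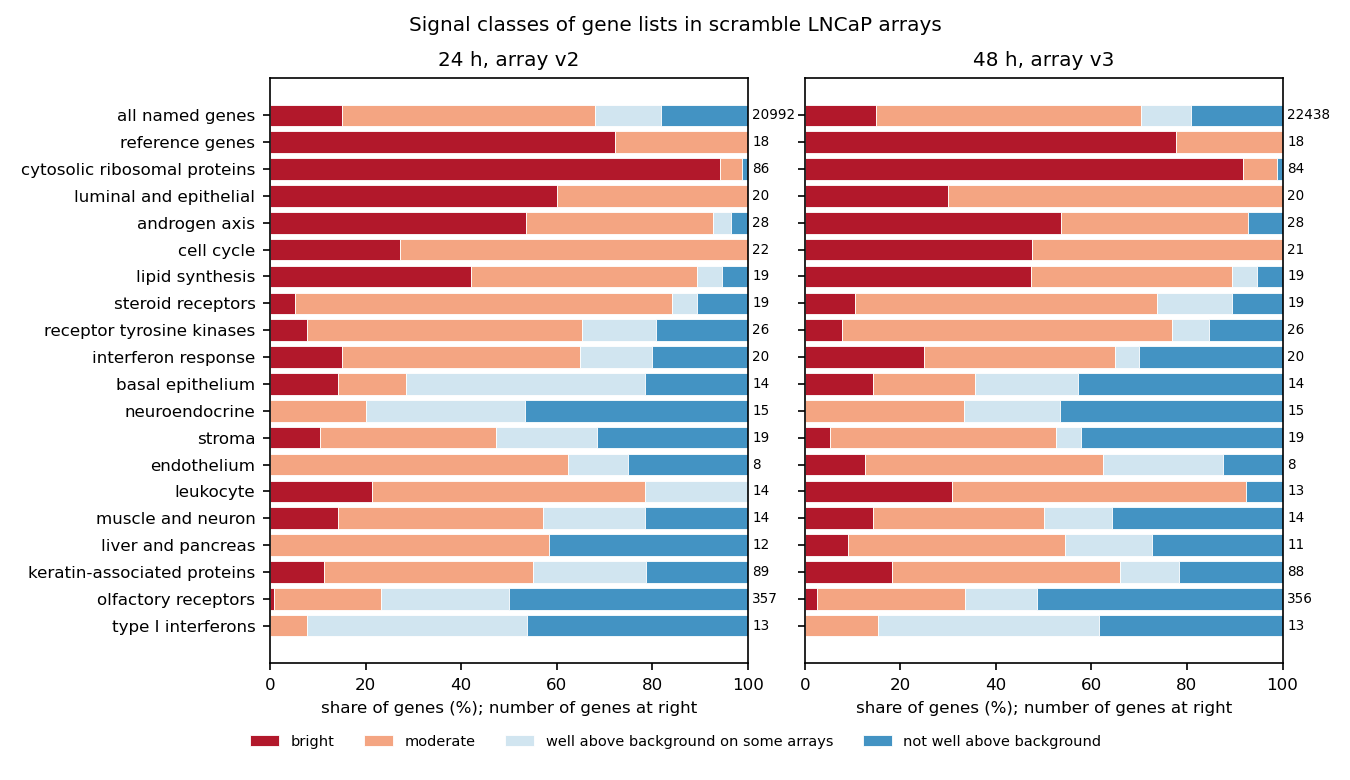
Share of genes (%) in each signal class, for gene lists and families (rows) in the 24 h scramble arrays (left, v2, n = 4) and the 48 h scramble arrays (right, v3, n = 4), with the number of genes on the array at the right of each bar. Reference, ribosomal, luminal and androgen axis genes are mostly bright or moderate. So are leukocyte genes, endothelial genes and all named genes (68.1% at 24 h and 70.4% at 48 h). Olfactory receptors, basal and neuroendocrine genes are mostly partly detected or not well above background.

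The sequence upstream of a gene was compared between the classes, since promoters rich in CpG dinucleotides are typical of genes that many tissues use. RefSeq promoters of GRCh38.p14, cut to the 250 bases before the start, matched 15942 genes of the 24 h array and 16974 of the 48 h array. Examples come from 5 genes. KLK3 and KLK2 are bright androgen targets, and RPLP0 is a bright ribosomal gene. KRT5 is a basal keratin gene not well above background, and ALB is the liver albumin gene. The 5 promoters follow. They are chr19:50854665-50854914 (+), chr19:50873189-50873438 (+), chr12:120201112-120201361 (-), chr12:52520395-52520644 (-) and chr4:73404037-73404286 (+), each read 5′ to 3′ on the strand of the gene with its CpG dinucleotides in capitals.
KLK3: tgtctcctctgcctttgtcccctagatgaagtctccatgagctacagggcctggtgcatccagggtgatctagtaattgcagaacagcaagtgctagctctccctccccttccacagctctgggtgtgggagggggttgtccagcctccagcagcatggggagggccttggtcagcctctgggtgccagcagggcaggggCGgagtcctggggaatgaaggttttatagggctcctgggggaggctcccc
KLK2: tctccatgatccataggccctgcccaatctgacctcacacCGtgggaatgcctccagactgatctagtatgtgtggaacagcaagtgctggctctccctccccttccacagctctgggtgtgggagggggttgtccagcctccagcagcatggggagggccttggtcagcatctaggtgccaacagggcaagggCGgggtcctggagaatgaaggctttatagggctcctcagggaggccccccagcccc
RPLP0: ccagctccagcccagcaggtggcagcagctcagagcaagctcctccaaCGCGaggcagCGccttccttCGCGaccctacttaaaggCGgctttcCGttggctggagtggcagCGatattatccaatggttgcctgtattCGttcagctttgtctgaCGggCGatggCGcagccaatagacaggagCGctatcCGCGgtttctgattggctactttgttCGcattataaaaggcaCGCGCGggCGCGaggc
KRT5: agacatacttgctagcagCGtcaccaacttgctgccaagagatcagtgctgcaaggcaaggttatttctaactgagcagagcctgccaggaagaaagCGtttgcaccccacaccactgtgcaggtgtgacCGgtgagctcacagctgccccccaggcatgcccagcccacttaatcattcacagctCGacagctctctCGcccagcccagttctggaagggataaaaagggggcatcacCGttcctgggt
ALB: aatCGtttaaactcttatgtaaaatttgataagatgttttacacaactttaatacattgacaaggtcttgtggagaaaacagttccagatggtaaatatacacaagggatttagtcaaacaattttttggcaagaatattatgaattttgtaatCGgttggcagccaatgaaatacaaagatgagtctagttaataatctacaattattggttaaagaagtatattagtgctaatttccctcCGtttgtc
RPLP0 has 21 CpG dinucleotides in this window, KRT5 has 6, ALB has 3, KLK2 has 2 and KLK3 has 1. KLK3 and KLK2 were thus bright with fewer CpG dinucleotides than KRT5. They do not stand for their list: the 8 bright androgen axis genes with a promoter had a median of 20 in each version. Written in the direction of the gene, the letters TTTATA, the reverse complement of the TATA box letters TATAAA, begin at position -28 from the KLK3 start and at -34 from the KLK2 start, and TATAAA begins at -27 from the RPLP0 start. The letters AGAACA, a half-site of the element that steroid hormones act through, begin at -170 from the KLK3 start.

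Over all genes with a promoter, the median number of CpG dinucleotides at 24 h was 21 in 2464 bright, 19 in 8601 moderate, 9 in 2088 partly detected and 7 in 2789 genes not well above background. At 48 h the medians were 20, 19, 10 and 6 in the same order. Bright and moderate promoters thus differed little, and both held more than the median of 11 over all 27305 RefSeq promoters. G+C made up a median of 64.8% of the bases of bright promoters and 55.2% of those not well above background at 24 h. TATAAA on either strand was found in 7.8% of bright promoters and 15.0% of those not well above background at 24 h, against 11.1% of all promoters. Counted only near the start, TATAAA was found in 3.4%, 5.7% and 2.6% in the same order. Bright promoters thus lay below all promoters in the wider count and above them in the narrower one. AGAACA on either strand was found in 7.4% of bright promoters and 12.4% of all promoters, and in 1 of the 8 bright androgen axis genes with a promoter (12.5%). Olfactory receptor promoters, with a median of 1 CpG dinucleotide, and those of keratin-associated proteins, 78.7% of which held TATAAA at 24 h, lay at the low end.

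**Figure D2:**
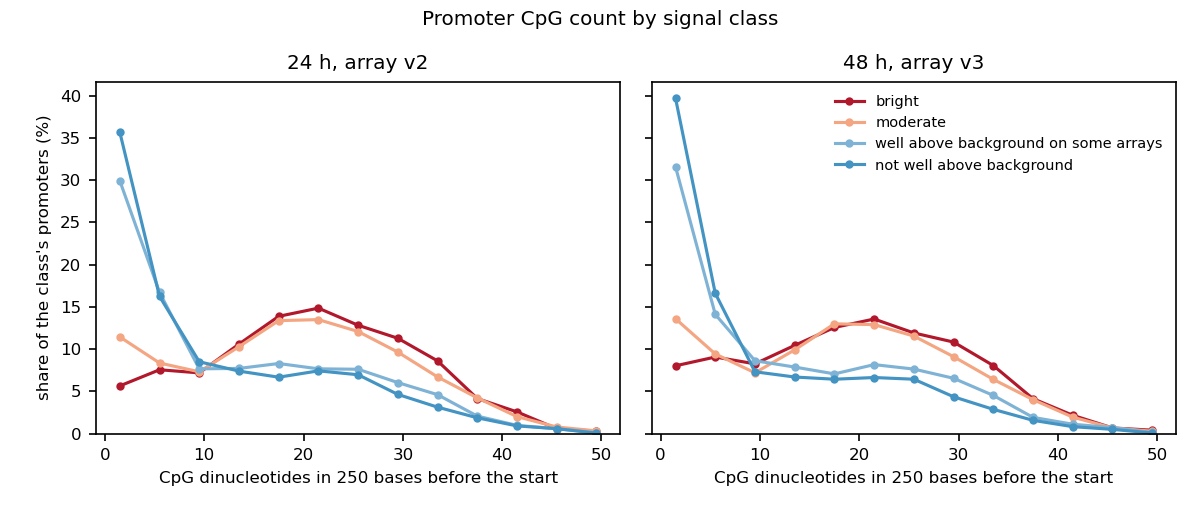
Share of promoters (%) by the number of CpG dinucleotides in the 250 bases before the start, in bins of 4, for each signal class at 24 h (left) and 48 h (right). Bright genes are most frequent near 20 CpG dinucleotides, and genes partly detected or not well above background in the lowest bin.

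The androgen programme gave signal on all 8 scramble arrays. Of 28 genes of the androgen axis list, 15 were bright and 11 moderate in each version, and the median percentile of the list was 92.3 at 24 h and 91.1 at 48 h, against 64.2 and 64.4 over all named genes. KLK3 read 10.32, 10.49, 11.33 and 10.73 at 24 h and 10.94, 10.81, 12.62 and 12.35 at 48 h. These values put KLK3 in the bright class in both versions, with replicate 3 the highest of its group at each time and replicates 1 and 2 the lowest. KLK2, the kallikrein gene next to it on chromosome 19, read 10.70, 10.64, 10.97 and 10.65 at 24 h and 11.73, 11.75, 12.97 and 12.39 at 48 h, and KLK4, another kallikrein of the cluster, 10.61, 10.73, 10.96 and 10.48 and 9.09, 9.25, 10.03 and 9.71.

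Membrane and transport proteins of the programme were bright as well. TMPRSS2, a transmembrane serine protease gene, read 10.23, 10.44, 11.05 and 10.79 at 24 h and 9.44, 10.04, 11.33 and 10.85 at 48 h, and FOLH1, which encodes prostate-specific membrane antigen, 11.75, 11.97, 12.48 and 12.07 and 11.31, 11.29, 12.41 and 11.96. SLC45A3, known as prostein, had means of 10.35 ± 0.42 (SD, n = 4) at 24 h and 10.26 ± 0.50 at 48 h, and the metalloreductase genes STEAP1 and STEAP2 were bright in both versions. FKBP5, an immunophilin gene that answers to several steroid receptors, was moderate, at 7.68, 7.78, 8.82 and 7.80 at 24 h and 7.80, 8.41, 8.43 and 8.36 at 48 h. Its second probe was not well above background at 24 h and partly detected at 48 h. ACP3, the prostatic acid phosphatase gene, was moderate in both versions, with 7.80, 8.18, 8.44 and 8.40 at 24 h and 4.53, 4.45, 5.62 and 5.10 at 48 h, and its second probe was partly detected at 48 h.

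Not every gene of prostate secretion was detected. HPGD, the prostaglandin dehydrogenase gene, read 3.44, 2.92, 4.75 and 3.26 and was partly detected at 24 h, and was not well above background at 48 h. MSMB, which encodes the abundant seminal protein beta-microseminoprotein, was moderate at 24 h, 4.67, 4.78, 4.57 and 4.65, and not well above background at 48 h, 3.66, 2.96, 2.21 and 3.33. STEAP4 had the opposite pattern, with 2.98, 2.98, 1.51 and 3.20 and no array well above background at 24 h, and 4.49, 4.41, 4.69 and 4.88 and a moderate class at 48 h. The remaining list genes, from the exporter gene ABCC4 to the coactivator genes NCOA2 and NCOA3, were bright or moderate in both versions.

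Of 17 prostate transcription factor genes, 7 (41.2%) were bright in each version and 4 were not well above background. FOXA1 read 10.54, 10.37, 11.15 and 10.18 at 24 h and 9.68, 9.96, 9.82 and 9.74 at 48 h, and HOXB13 9.39, 9.44, 9.17 and 9.43 and 9.67, 9.51, 9.75 and 9.74. The mean of HOXB13 was 9.36 ± 0.12 (SD, n = 4) at 24 h and 9.67 ± 0.11 at 48 h. SPDEF, an ETS factor of secretory epithelium, and XBP1, a factor of the secretory stress response, were bright in both versions, whereas GATA2, a zinc finger factor, was moderate. GATA3 was well above background on 0 of the 8 arrays. Of the ETS genes that prostate tumours rearrange, ERG was not well above background in either version, with 1.67, 1.67, 2.28 and 1.71 at 24 h and 1.24, 1.23, 1.22 and 1.27 at 48 h. ETV1, the member known to be rearranged in LNCaP cells, read 8.95, 9.0, 8.98 and 8.85 at 24 h and 9.16, 8.80, 9.55 and 9.40 at 48 h from the brightest of its 4 probes, while its dimmest probe was well above background on 3 of 4 arrays in each version. ETV4 was moderate in both versions and ETV5 was not well above background in either. In all, 12 of the 17 transcription factors (70.6%) were bright or moderate at 24 h and 11 (64.7%) at 48 h. These shares lay near those over all named genes, 68.1% and 70.4%.

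All 20 genes of the luminal and epithelial list were well above background on every array of both versions, 12 of them bright at 24 h and 6 at 48 h. Among all named genes, 68.1% and 70.4% were well above background on all 4 arrays, and 15.1% and 15.0% were bright. The simple keratin genes KRT8 and KRT18, whose proteins pair into the filaments of glandular epithelium, were bright, with KRT8 at 13.55, 13.39, 12.06 and 13.77 and 14.16, 14.11, 14.28 and 14.45 and KRT18 at 12.95, 13.33, 12.75 and 12.97 and 11.97, 12.31, 12.39 and 12.06. Replicate 3 gave the lowest KRT8 value at 24 h and not at 48 h. The gene of E-cadherin, CDH1, read 10.03, 9.86, 11.36 and 9.98 at 24 h and 8.80, 8.76, 9.46 and 9.31 at 48 h, and that of the adhesion molecule EPCAM 8.13, 8.15, 9.39 and 8.67 and 8.32, 8.24, 8.41 and 8.40. Both were highest on replicate 3 of their version. KRT19, a keratin gene of variable level among glands, was moderate, at 5.39 ± 0.45 (SD, n = 4) at 24 h and 6.60 ± 0.90 at 48 h.

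**Figure D3:**
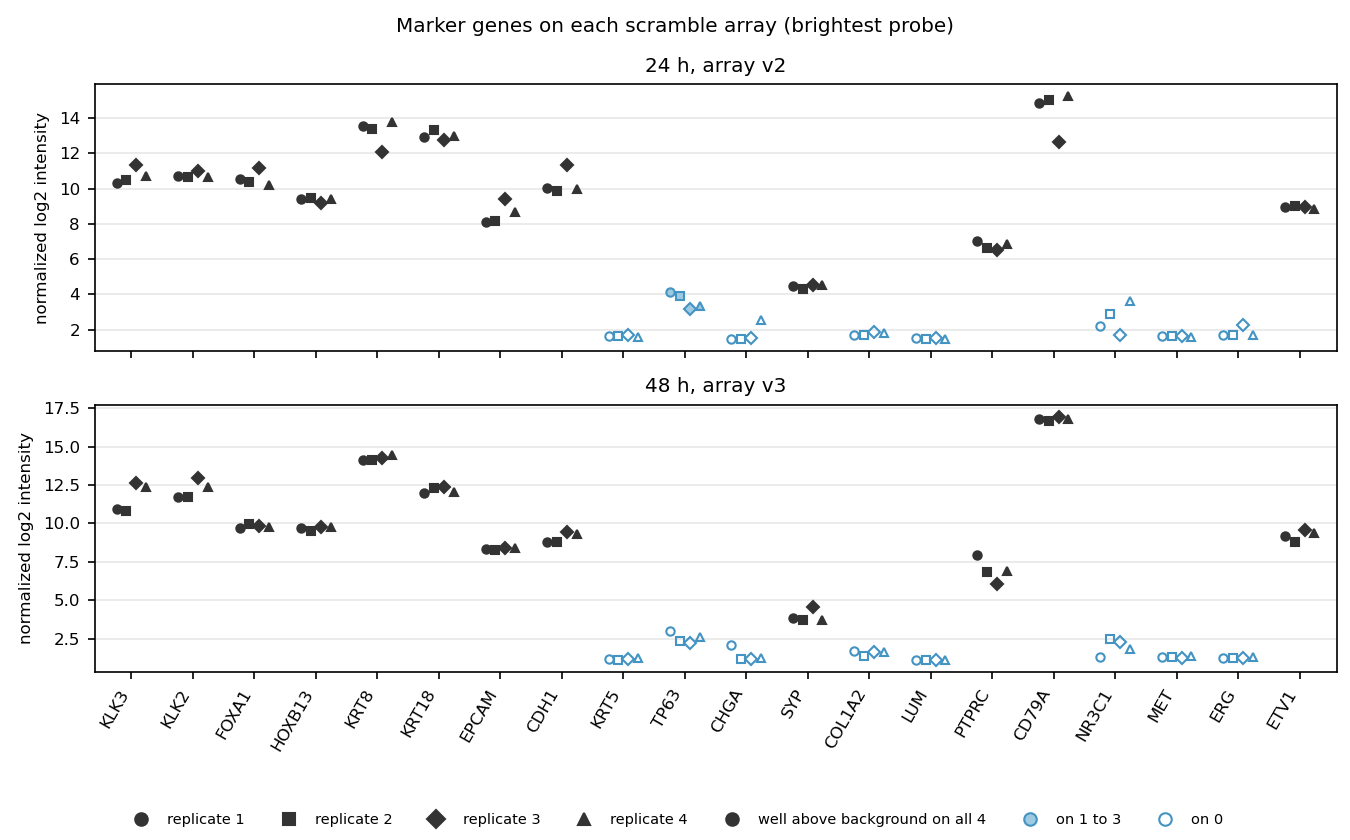
Normalized log2 intensity of the brightest probe of marker genes on each scramble array at 24 h (top, v2) and 48 h (bottom, v3); symbols mark replicates, filled dark symbols a probe well above background on all 4 arrays, light blue on 1 to 3 and open on none. The 8 luminal and androgen axis genes drawn at the left, KLK3 to CDH1, read above 8 on every array, while KRT5, LUM, COL1A2, MET and ERG read between 1.11 and 2.28.

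Basal epithelial genes were largely dim. Of 14 genes, 2 were bright, 2 moderate, 7 partly detected and 3 not well above background at 24 h, and 2, 3, 3 and 6 at 48 h. Bright and moderate genes made up 28.6% and 35.7%, against 68.1% and 70.4% of all named genes. The median percentiles were 39.0 and 32.6, against 64.2 and 64.4. KRT5 read 1.63, 1.62, 1.67 and 1.57 at 24 h and 1.15, 1.13, 1.18 and 1.21 at 48 h, at the floor of the array. TP63, the master regulator of basal cells, read 4.13, 3.88, 3.16 and 3.33 at 24 h, where it was partly detected, and 3.00, 2.32, 2.24 and 2.57 at 48 h, where no array was well above background. The bright genes included KRT15, with 12.93, 12.70, 11.48 and 11.89 at 24 h and 12.32, 12.71, 11.88 and 12.10 at 48 h from 1 probe on each version. The count of basal genes well above background on all 4 arrays at 24 h was 4, and 9 without replicate 3.

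Neuroendocrine genes showed no bright member. Of 15 genes, 3 (20.0%) were moderate at 24 h and 5 (33.3%) at 48 h, and 7 were not well above background in each version. Bright and moderate genes together made up 68.1% and 70.4% of all named genes. CHGA, the chromogranin gene that defines these cells in pathology, read 1.46, 1.47, 1.51 and 2.53 at 24 h and 2.08, 1.16, 1.17 and 1.20 at 48 h. The transcription factor genes INSM1 and NEUROD1 were well above background on 0 of the 8 arrays. SYP, the synaptophysin gene, was moderate, with 4.48, 4.28, 4.55 and 4.51 at 24 h and 3.81, 3.73, 4.55 and 3.68 at 48 h, at percentiles of 43.1 and 42.1. ENO2, a neuronal enolase gene, read 6.42, 6.92, 6.15 and 6.80 at 24 h and 6.0, 6.22, 7.93 and 6.98 at 48 h, and SCG3, a secretogranin gene, 6.92, 7.46, 5.28 and 7.60 and 8.60, 8.50, 7.83 and 7.89.

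Stromal genes were divided. Of 19 genes, 9 (47.4%) were well above background on all 4 arrays at 24 h and 10 (52.6%) at 48 h. Both shares lay below those of all named genes, 68.1% and 70.4%. The fibrillar collagen genes were low, with COL1A2 at 1.72, 1.67, 1.89 and 1.81 and 1.70, 1.35, 1.62 and 1.65 and no array well above background. LUM, a proteoglycan gene of fibroblasts, was not well above background in either version. FN1, the fibronectin gene, was bright at 24 h, 10.18, 10.72, 10.37 and 10.48, and moderate at 48 h, 9.12, 8.59, 8.17 and 8.79. VIM, the mesenchymal filament gene, was moderate in both versions, with 7.21, 7.03, 7.81 and 6.59 at 24 h and 4.47, 4.99, 6.77 and 4.41 at 48 h. DES, a muscle filament gene measured by 1 probe, was bright, at 10.84, 10.58, 8.87 and 10.99 and 12.33, 11.77, 12.35 and 12.58, and its 24 h replicate 3 was the lowest.

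Most leukocyte genes also gave signal. Of 14 leukocyte genes at 24 h, 3 were bright, 8 moderate and 3 partly detected, and of 13 at 48 h, 4 were bright, 8 moderate and 1 not well above background. Bright and moderate genes thus made up 78.6% and 92.3%, against 68.1% and 70.4% of all named genes. For the androgen axis the share was 92.9% in each version. The median percentile of the leukocyte list was 62.4 at 24 h and 72.2 at 48 h. CD79A, a B-cell receptor component gene, read 14.86, 15.04, 12.63 and 15.24 at 24 h and 16.77, 16.70, 16.94 and 16.83 at 48 h, and CD4 14.70, 14.70, 13.38 and 15.08 and 16.98, 16.95, 16.84 and 16.79. Both were single-probe genes, and both were lowest on replicate 3 at 24 h. By contrast the B-cell gene MS4A1 was partly detected at 24 h, 3.79, 3.15, 2.56 and 4.34, and not well above background at 48 h, 3.58, 3.08, 1.64 and 1.88. PTPRC, which encodes the pan-leukocyte antigen CD45, had 5 probes on each version, of which 2 were moderate in both. Its brightest probe read 7.05, 6.60, 6.53 and 6.88 at 24 h and 7.96, 6.81, 6.02 and 6.89 at 48 h, and its dimmest was not well above background in either version. Of 8 endothelial genes, 5 (62.5%) were well above background on all 4 arrays in each version, among them CDH5 and VWF. TEK was not well above background in either version. The source of these signals was not tested.

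Among 19 steroid and related nuclear receptor genes, 16 (84.2%) were bright or moderate at 24 h and 14 (73.7%) at 48 h. Over all named genes the shares were 68.1% and 70.4%. The glucocorticoid receptor gene NR3C1 was not well above background in either version by any of its 3 probes, with 2.23, 2.88, 1.71 and 3.63 at 24 h and 1.27, 2.45, 2.30 and 1.79 at 48 h for the brightest. RARA, a retinoic acid receptor gene, was bright in both versions, and the vitamin D receptor gene VDR was moderate, at 6.51 ± 0.27 (SD, n = 4) and 6.78 ± 0.12. Of 21 genes of steroid metabolism, 15 (71.4%) were bright or moderate in each version, near the share of all named genes. The glucuronosyltransferase genes UGT2B10, UGT2B11 and UGT2B15, whose enzymes attach glucuronic acid to steroids and so end the androgen signal, were bright in both versions. UGT2B15 read 11.04, 10.43, 10.87 and 10.50 at 24 h and 10.91, 11.43, 9.27 and 9.98 at 48 h. These genes are close copies of each other, so their probes may share signal. SRD5A1, a 5-alpha-reductase gene, was moderate, with 8.29, 8.46, 7.96 and 8.45 and 6.42, 7.06, 6.99 and 6.58, and HSD3B1, an enzyme gene of androgen synthesis, was partly detected at 24 h and not well above background at 48 h.

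Growth factor receptors and cancer genes gave a mixed picture. Of 26 receptor tyrosine kinase genes, 17 (65.4%) were bright or moderate at 24 h and 20 (76.9%) at 48 h. Over all named genes the shares were 68.1% and 70.4%. ERBB3 read 8.41 ± 0.05 (SD, n = 4) at 24 h and 7.46 ± 0.10 at 48 h, and EGFR 7.65 ± 0.11 and 7.50 ± 0.05. MET, the hepatocyte growth factor receptor gene, was not well above background in either version, with 1.66, 1.63, 1.62 and 1.58 and 1.31, 1.31, 1.26 and 1.33. MYC was bright in both versions, 10.66, 10.67, 11.84 and 10.86 and 10.17, 10.56, 10.29 and 10.21. RB1 was partly detected in both, and MYCN was not well above background in either version.

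Duplex RNA can act on RNA sensors of the cell, and the scramble arrays give the level of antigen presentation and interferon genes with no comparison to untransfected cells. Of 17 antigen presentation genes, 13 (76.5%) were bright or moderate in each version, against 68.1% and 70.4% of all named genes. B2M, the light chain of class I molecules, read 10.42, 10.49, 10.79 and 10.44 at 24 h and 9.67, 9.79, 10.49 and 10.29 at 48 h, and HLA-B 8.23, 8.52, 8.99 and 8.61 and 7.65, 7.49, 8.41 and 7.67. The class II gene HLA-DRA was not well above background in either version. Of 20 interferon response genes, 13 (65.0%) were bright or moderate in each version, a share below that of all named genes. ISG15 was bright, with 10.28, 10.29, 10.45 and 9.96 and 10.31, 10.32, 10.01 and 9.97. IFIT3, CXCL10 and the interferon gene IFNB1 were well above background on 0 of the 8 arrays.

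Of 17 cancer-testis genes, which are germ-line genes that tumours can switch on, 11 (64.7%) were bright or moderate in each version. The share over all named genes was 68.1% at 24 h and 70.4% at 48 h. MAGEA4 read 9.13, 9.36, 9.12 and 9.13 at 24 h and 9.19, 9.06, 9.18 and 9.14 at 48 h, and PRAME 8.12, 8.57, 8.42 and 8.41 and 8.88, 8.54, 8.71 and 8.41. Among noncoding RNAs, the nuclear RNAs MALAT1 and NEAT1 were bright, with MALAT1 at 14.82, 14.89, 15.22 and 14.98 and 14.79, 15.25, 15.76 and 15.37 and NEAT1 at 13.24, 13.25, 13.90 and 13.19 and 12.11, 12.34, 12.80 and 12.62. SCHLAP1, a prostate cancer RNA linked to aggressive disease, was bright at 24 h, 9.54, 9.97, 10.01 and 9.78, and moderate at 48 h, 8.32, 8.57, 9.35 and 8.81. PCA3, the RNA of the urine test for prostate cancer, was moderate in both versions, at 5.37, 4.48, 5.21 and 4.72 and 5.23, 5.22, 5.99 and 6.24.

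Genes of general cell maintenance were mostly bright. All 18 reference genes were well above background on every array, 13 of them bright at 24 h and 14 at 48 h. RPLP0 read 15.21, 15.57, 15.53 and 15.17 and 15.13, 15.24, 15.25 and 15.11, ACTB 14.42, 14.88, 14.40 and 14.96 and 13.01, 13.37, 14.11 and 13.61, and TBP, a gene of the basal transcription machinery, only 5.96, 6.18, 6.38 and 6.23 and 5.85, 5.77, 5.98 and 5.75. Of 86 cytosolic ribosomal protein genes, 81 were bright at 24 h, and 77 of 84 at 48 h. The mitochondrial ribosomal proteins were less bright, with 40 of 77 and 39 of 77, but all were well above background on every array. Oxidative phosphorylation genes were bright in 70 of 93 and 69 of 92 cases, and proteasome genes in 27 of 38 and 22 of 38.

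Proliferation genes gave signal throughout, as all 22 cell cycle genes at 24 h and all 21 at 48 h were well above background on all 4 arrays. MKI67, the proliferation antigen, read 8.99, 9.14, 9.26 and 8.85 at 24 h and 9.72, 9.68, 9.47 and 9.92 at 48 h. CCNB1, the mitotic cyclin, was bright, at 11.10, 10.83, 9.66 and 11.07 and 11.99, 12.12, 11.45 and 11.99. Chaperones were bright in 13 of 16 cases in each version. The exceptions included HSPA5, the endoplasmic reticulum chaperone, which was partly detected at 24 h and moderate at 48 h with 4.50, 4.34, 4.42 and 4.84 and 5.37, 4.82, 5.46 and 5.52. Of 19 genes of fatty acid and cholesterol synthesis, a pathway that androgen raises in prostate cancer cells, 17 (89.5%) were bright or moderate in each version. Among all named genes the shares were 68.1% and 70.4%. FASN, the fatty acid synthase gene, read 11.21, 10.91, 10.79 and 11.82 and 10.50, 10.40, 10.37 and 10.45, whereas INSIG1, whose protein restrains the same pathway, was not well above background in either version, with 2.48, 1.84, 2.53 and 3.18 and 1.17, 2.02, 2.73 and 1.24.

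Families restricted to other tissues set the level to which the marker signals can be compared. Of 357 olfactory receptor genes on the 24 h array, 83 (23.2%) were well above background on all 4 arrays, and 119 of 356 (33.4%) at 48 h. For keratin-associated proteins, which build hair, the shares were 55.1% of 89 and 65.9% of 88. Taste receptors reached 50% of 28 and 53.6% of 28. Of 12 liver and pancreas genes at 24 h, 7 were moderate and none bright, and of 11 at 48 h, 5 were moderate and 1, the glucagon gene GCG, was bright. ALB read 3.29, 3.13, 3.36 and 2.87 at 24 h, not well above background, and 4.39, 5.03, 2.84 and 4.07 at 48 h, partly detected. Over all genes the share well above background on all 4 arrays was 68.1% at 24 h and 70.4% at 48 h, so that this flag alone does not set a tissue's genes apart.

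Of the 10 brightest genes of each version, 6 were common to both. RNA28SN5, a 28S ribosomal RNA gene, led both lists, with 18.37, 18.37, 18.23 and 18.32 at 24 h and 19.13, 19.09, 19.04 and 19.09 at 48 h. The 10 brightest at 24 h went on with MAP4, DNM1, TYMP, RN7SK, VPS9D1, TNRC18, NKX2-5, TPSG1 and TMEM278, and those at 48 h with MAP4, PTMS, TYMP, DNM1, TPSG1, TNRC18, RN7SL1, CALY and HCN2. RN7SK and RN7SL1 are short abundant noncoding RNAs, of transcription control and of the signal recognition particle. NKX2-5 is a heart gene, DNM1, CALY and HCN2 act in neurons, and TPSG1 is a mast cell tryptase gene. TNRC18 had 4 probes, and 1 of them was not well above background in either version.

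Ranks were close between the versions. Over 45694 probes present on both, Spearman's rho of the mean percentiles was 0.951, and over the 24257 of them well above background on all 8 arrays it was 0.909. For single arrays, the 16 pairs of 1 array of each version gave rho of 0.901 to 0.945. These are descriptions across probes, which share libraries and are not replicates. The same class was assigned to 35550 shared probes (77.8%) and to 78.8% of 20738 genes on both versions. Of these genes, 13633 were well above background on all 8 arrays, 2554 were bright in both versions and 2909 were not well above background in either version. Over 19606 named probes, the percentile differed by a median of 3.7 points, and by more than 30 points for 137.

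The widest differences ran in both directions. PSMD5, a chaperone gene of proteasome assembly, was at percentile 66.7 at 24 h and 8.6 at 48 h, and ACTA2, the smooth muscle actin gene, at 76.5 and 19.6. TMEM45B, BCAS1 and ECHDC1 were the next lower ones on v3. GYPB, a red cell glycophorin gene, was at 8.5 at 24 h and 78.8 at 48 h, followed by PKD1L2, MSC, WFDC8 and PCSK1. PCSK1 encodes a prohormone convertase of neuroendocrine cells and is a member of that list. It read 1.67, 1.66, 1.64 and 1.58 at 24 h and 7.68, 4.59, 5.75 and 5.78 at 48 h. Time after transfection, array version and slide all go with this split and cannot be told apart.

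**Figure D4:**
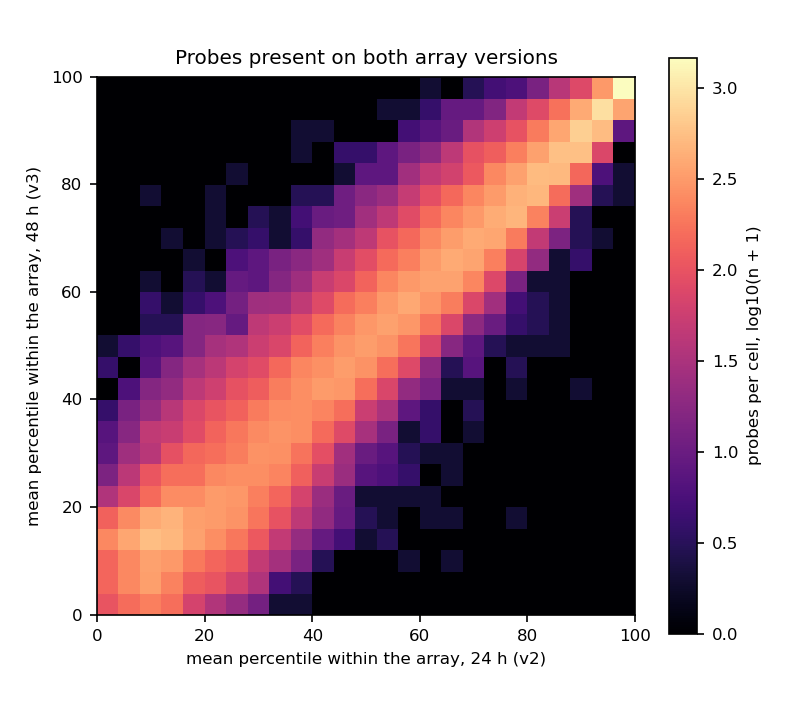
Mean within-array percentile of 45694 probes present on both array versions, 24 h scramble arrays on the x axis and 48 h scramble arrays on the y axis; colour gives the number of probes per cell as log10(n + 1). Probes follow the diagonal (rho 0.951), and few lie in its far corners.

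Within a version, replicates ranked the probes alike. Spearman's rho of 2 arrays was 0.946 to 0.971 at 24 h, where the 3 pairs with replicate 3 gave 0.946 to 0.949, and 0.955 to 0.969 at 48 h. The median SD over the 4 arrays of bright and moderate probes was 0.282 log2 units at 24 h and 0.226 at 48 h. Replicates 1 and 2 shared a slide in each version, and replicates 3 and 4 the other, so slide and pair of replicates cannot be told apart. At 24 h the gene with the largest SD among probes well above background on all 4 arrays was YJU2, a splicing factor gene, with 4.13, 9.37, 9.20 and 9.24. It was followed by COG8, SMUG1, TKFC and LINC00673, and all but TKFC lay in the block of low spots on replicate 1, which held 10 of the 20 largest SDs. At 48 h the largest was that of ANXA2, a membrane-binding protein gene, with 4.82, 4.42, 8.85 and 4.48, followed by LINC01553, TRPV3, OR2F1 and SLC22A9.

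Most androgen axis genes read higher on the second slide at 48 h, though no single difference passed the adjusted threshold. By limma with Benjamini-Hochberg adjustment, no probe passed an adjusted p of 0.05 between slides in either version (0% of 31124 probes at 24 h and 0% of 34666 at 48 h), although 1631 probes passed at 48 h after normexp background correction and 2030 on median signals with no background correction. At an unadjusted p under 0.05, 2.71% of probes differed at 24 h and 21.9% at 48 h, 1.55% and 10.9% of all probes with the higher value on the second slide. Of 26 androgen axis genes tested at 48 h, 25 were higher on the second slide, with a median difference of 0.65 log2 units, against 8368 of 16457 named genes with a median of 0.01. Of the 26, 14 had an unadjusted p under 0.05, all with the higher value on the second slide. At 24 h, 19 of 26 were higher on the second slide, with a median of 0.27, and none had an unadjusted p under 0.05.

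At 48 h KLK3 had a mean of 10.88 on the first slide and 12.48 on the second, a difference of 1.61 log2 units (SE 0.17, limma adjusted p = 0.0911, 2 arrays a slide). The difference for TMPRSS2 was 1.35 (SE 0.28, limma adjusted p = 0.106), and that for NDRG1, a stress and androgen response gene, 1.21 (SE 0.25, limma adjusted p = 0.108). The KLK3 values of the slides did not overlap. The UGT2B genes, which androgen lowers in LNCaP cells, ran the other way: UGT2B15 was lower by 1.55 on the second slide (slide difference -1.55, SE 0.30, limma adjusted p = 0.102) and UGT2B11 by 1.65 (-1.65, SE 0.36, limma adjusted p = 0.111). All 4 UGT2B genes tested, of a family added after its values were seen, were lower on the second slide at 48 h. At 24 h the same differences were 0.62 for KLK3 and -0.04 for UGT2B15 (limma adjusted p = 0.991 and 0.996). Luminal genes were higher on the second slide in 18 of 20 cases at 48 h and lipid synthesis genes in 14 of 17, whereas cell cycle genes were higher in 4 of 21. Whether androgen activity differed between the slides was not tested.

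**Figure D5:**
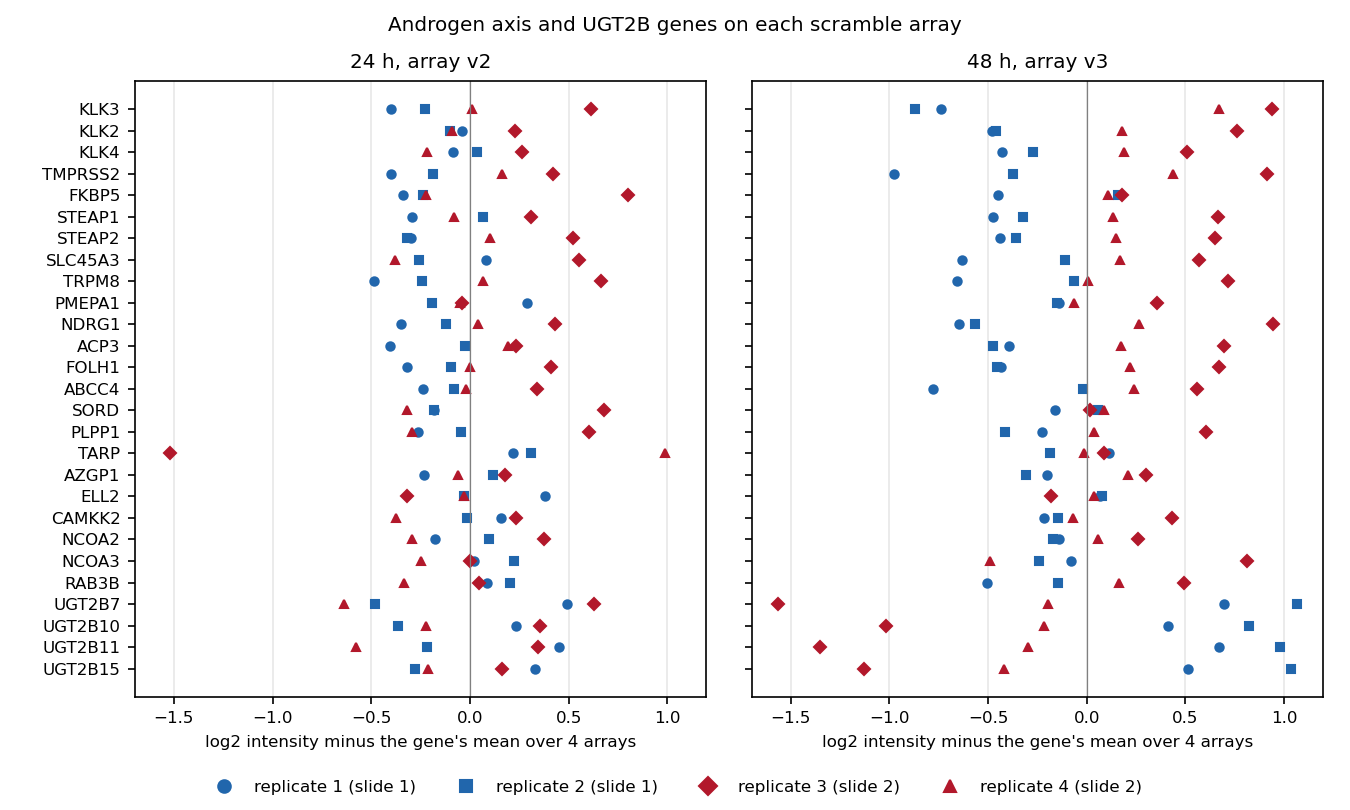
Log2 intensity of UGT2B genes and of androgen axis genes that entered the slide comparison at both times, except those not reported by name (rows), on each scramble array minus the mean of the gene over the 4 arrays of its version, at 24 h (left) and 48 h (right); blue symbols are replicates 1 and 2 (the first slide) and red symbols replicates 3 and 4 (the second slide). At 48 h most androgen axis genes lie to the right for the second slide and the UGT2B genes to the left, and at 24 h replicate 3 lies furthest right for many androgen axis genes.

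At 24 h many androgen axis genes read highest on replicate 3. Replicate 4, the other array of the second slide, was mixed. It read above both arrays of the first slide for KLK3, TMPRSS2, FOLH1 and ACP3, among others, but not for KLK2 or KLK4. On replicate 3, 23 of 28 androgen axis genes were above the mean of the other 3 arrays, with a median of 0.47 log2 units, against 11362 of 20990 named genes with a median of 0.05. Cytosolic ribosomal genes had a median of 0.40, with 72 of 86 higher. The UGT2B genes, which ran against the androgen axis between slides at 48 h, had a median of 0.46 here, with 5 of 5 higher. Leukocyte genes had a median of -1.02, with 1 of 14 higher, and endothelial genes -0.73, with 0 of 8 higher. These counts take in dim genes. At 24 h, 3 leukocyte genes and 1 endothelial gene were partly detected, and 2 endothelial genes and 1 UGT2B gene were on no array well above background. FKBP5 read 8.82 there against 7.68 to 7.80 on the other 3 arrays. With replicate 4 left out, replicate 3 against replicates 1 and 2 gave 3226 probes past the adjusted threshold (limma), 1007 higher and 2219 lower on replicate 3, where the lone array is assumed to vary like the others. This array also had the lowest share of probes well above background, and the part of array quality in these shifts was not tested.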

How the data were processed

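Expression in the scramble samples was measured on 8 one-colour arrays, grouped by their labels as 4 at 24 h and 4 at 48 h. The members and the gene lists were chosen with earlier results of these data known, and the families of kallikreins, HOX genes, keratins, claudins and UGT2B enzymes were added after their values were seen. Per the file headers, Agilent Feature Extraction 11.5.1.1 gave the processed intensity of each spot on a linear scale, background-subtracted and detrended within the array but not scaled between arrays. The authors deposited it with median pixel intensities of spot and surrounding background and with flags. They also deposited log2 values, used here only as an alternative, which from their values are processed intensities quantile-normalized over the 12 arrays of a version with control spots included, made per the labels with R 3.4.3 and limma 3.34.8.

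Control spots and outlier spots (0.496% at 24 h and 0.222% at 48 h) were left out and repeated spots averaged, which left 50599 and 58201 probes. No spot was saturated. Percentiles were taken within each array, and log2 intensities were quantile-normalized between the 4 scramble arrays of a version. Names came from the accession of the probe in RefSeq (GRCh38.p14), found for 57.4% of probes (29033) on the 24 h array and 53.4% (31104) on the 48 h array. Values of a gene are those of its brightest probe. Genes named are list members, the 10 brightest per version, the 5 with the largest gain and loss in percentile between versions and the 5 with the largest SD per version. XIST and genes of the Y chromosome were left out, and some list genes, which stay in the counts, are not reported here by name.

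Slides, read from the scanner output, were compared with limma 3.58.1 (lmFit and eBayes, R 4.3.3) over probes well above background on at least 3 of 4 arrays, with Benjamini-Hochberg adjustment and a threshold of 0.05, in code tested on simulated data. Alternatives were other detection rules (the mean plus 3 SD of 308 negative control spots, or the flag for a positive and significant signal), percentiles of 95 and 80 for the bright class, normexp with an offset of 50 (on median signals, since the files hold no mean signal), other scalings, and fits that left out 1 array at a time.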

Additional observations from a re-analysis of the deposited data

Results flagged for a closer look

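Among 202 groups of 4 arrays examined for the genes named here and for array quality, 26 (12.9%) had 1 value apart from the other 3 by Dixon's test at its 95% level, which chance alone gives in about 1 in 20 groups. The genes listed for a large SD were picked for their spread, so their values stand apart by choice. No explanation was tested for any of these values.

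At 24 h most of these values came from replicate 3. It was the highest array for FKBP5, at 8.82 against 7.68 to 7.80 log2 units on the others, for CDH1, at 11.36 against 9.86 to 10.03, for MYC, at 11.84 against 10.66 to 10.86, and for NEAT1, at 13.90 against 13.19 to 13.25. It was the lowest for CD79A, at 12.63 against 14.86 to 15.24, and for STEAP4, at 1.51 against 2.98 to 3.20. Replicate 3 was also apart for ERG (2.28), GATA3 (1.56) and INSM1 (1.67), none of which was well above background on any array. Over all 386 list genes at 24 h, 40 had 1 array apart, and in 32 of them it was replicate 3, which was high in 19 and low in 13. MAGEA4 read 9.36 on replicate 2 against 9.12 to 9.13, and CHGA, not well above background, read 2.53 on replicate 4.

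Replicate 1 at 24 h was low for YJU2 (4.13 against 9.20 to 9.37), COG8 (5.22), SMUG1 (4.46) and LINC00673 (4.94), whose probes lay in 1 block of that array. At 48 h, 24 of 383 list genes had 1 array apart, 14 of them replicate 3. FKBP5 read 7.80 on replicate 1 against 8.36 to 8.43, SYP 4.55 on replicate 3 against 3.68 to 3.81, and HSD3B1 2.13 on replicate 4 against 3.02 to 3.08. ANXA2 read 8.85 on replicate 3 against 4.42 to 4.82, TRPV3 7.08 on replicate 2 against 3.58 to 3.94, and SLC22A9 8.50 on replicate 4 against 5.12 to 5.51. Values of genes with no array well above background that stood apart at 48 h were those of CHGA (2.08 on replicate 1), IFIT3 (1.75 on replicate 2), INSM1 (2.87 on replicate 2), NEUROD1 (1.29 on replicate 3) and TEK (1.26 on replicate 3).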

How the results depend on the processing

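Of 200 alternative values, 172 were counted as unmoved and 28 as moved. Unmoved meant within 1.5 times a count, within the spread of an agreement, or within the SD over genes of a promoter median. Some could not move: the percentile cutoffs and normexp kept the same background flags. The counts of genes well above background and of those on no array were therefore the same under them, so the tally is no measure of robustness. The bright genes, 3169 at 24 h and 3356 at 48 h, became 1510 and 1585 with percentile 95, 6353 and 6783 with percentile 80, 4932 and 5735 as probes, and 2091 and 2137 by the lowest class among probes, a rule added after the data were seen. Genes not well above background, 3813 and 4301, became 1260 and 2460 with the negative control rule, 814 and 1169 with the flag for a positive and significant signal, and 14184 and 18030 as probes. Genes well above background on all 4 arrays became 27571 and 32683 as probes. Basal genes well above background numbered 4 at 24 h, but 10 by the negative control rule, 9 without replicate 3 and 2 by the lowest class, which gave 2 of 5 at 48 h; stromal genes at 48 h fell from 10 to 6 by the lowest class, and neuroendocrine genes at 24 h went from 3 to 7 by the negative control rule. The rho between versions was 0.909 over probes well above background on all 8 arrays and 0.936 over genes by their brightest probe. Of the slide comparisons, normexp gave 1631 and the unadjusted median signal 2030 called probes at 48 h, against 0. With 1 array left out at 24 h, where the lone array of a slide is assumed to vary like the others, 0 to 3226 probes were called, 3226 without replicate 4 and 30 without replicate 2. The cause of these moves was not tested.

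When single arrays were left out, the bright genes ranged from 3151 to 3208 at 24 h and from 3352 to 3377 at 48 h. Genes well above background on all arrays ranged from 14342 to 15265 and from 15832 to 16113, those on none from 3868 to 4174 and from 4431 to 4887, and basal genes at 24 h from 4 to 9. The rho between versions ranged from 0.947 to 0.955, and called probes between slides at 48 h stayed at 0. No paired analysis was possible because the only test compared slides within a version, which hold different replicate numbers, and no test was made between the versions. The other detection rules moved the counts of genes not well above background and left the counts of bright genes unchanged. The bright class also requires a high percentile, so a change of detection rule could hardly alter it. The comparison of classes therefore cannot show what limits the dim ones, which was not tested.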

Other observations

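The families below were chosen after their values were seen, and their counts are descriptions. Of 15 kallikrein genes, which lie side by side on chromosome 19, KLK2, KLK3 and KLK4 were the 3 bright members in both versions. KLK1 and KLK11 were not well above background on any of the 8 arrays, with means of 3.35 ± 0.12 (SD, n = 4) and 1.81 ± 0.18 log2 units at 24 h. KLK5, a skin kallikrein gene, was moderate, with 6.30, 5.86, 5.47 and 5.98 at 24 h and 8.49, 8.29, 9.33 and 9.09 at 48 h.

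The HOX genes, which mark position along the body axis, were mostly dim. The bright members were HOXA9, HOXA10 and HOXB13 in both versions. HOXA10 read 14.33, 14.17, 13.46 and 14.70 at 24 h and 17.25, 17.23, 17.02 and 17.14 at 48 h, while its other probe was moderate. HOXA9 read 12.52, 12.25, 10.59 and 12.94 at 24 h, and another of its probes was not well above background in either version. Of 10 HOXB genes, 2 were well above background on all 4 arrays at 24 h and 4 at 48 h, against 68.1% and 70.4% of all named genes. HOXB13 was the bright one. No HOXC or HOXD gene was bright.

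Of 53 keratin genes, 27 (50.9%) were bright or moderate at 24 h and 31 (58.5%) at 48 h, against 68.1% and 70.4% of all named genes. Beside KRT8 and KRT18, the bright ones in both versions were KRT7, KRT15, KRT73, KRT78 and KRT81. KRT81, a hair keratin gene, read 16.23, 16.73, 14.98 and 16.93 at 24 h and 18.22, 18.44, 18.36 and 18.36 at 48 h, from 1 probe. Claudin genes, which seal the contacts between epithelial cells, were bright for CLDN4, CLDN7 and CLDN19 in both versions.

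By chromosome, the share of protein-coding genes well above background on all 4 arrays was lowest on chromosome 4, at 57.2% of 699 genes at 24 h and 61.8% of 693 at 48 h. It was highest on chromosome 16 at 24 h, 80.4% of 762, and on chromosome 22 at 48 h, 84.7% of 398. Of genes named by ZNF numbers, a large family of DNA-binding proteins, 82.3% of 502 were well above background at 24 h, but 10.2% were bright, against 15.1% of all genes. Interleukin genes were well above background in 13 of 49 cases at 24 h and 25 of 49 at 48 h, and collagen genes in 22 and 25 of 44. For genes of long intergenic RNAs named LINC the shares were 39.5% of 587 and 47.2% of 1127. All named genes had shares of 68.1% and 70.4%.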
